A study of Mus musculus with 6 samples.

Results

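The Smad and Ski genes described here are 9 genes of the TGF-beta and BMP signalling route (Smad1, Smad2, Smad3, Smad4, Smad5, Smad6, Smad7, Ski and Skil), read by every probe set whose single gene symbol in the platform annotation is one of these names. That gave 21 probe sets of the 45037 that are not array controls, and 9 of the 18193 genes that the array names. Expression was measured in tongues of C57BL/6J mouse embryos at embryonic day 14.5 on 6 Affymetrix arrays. The 3 mutants were Tgfbr2 fl/fl; Wnt1-Cre, in which a recombinase driven by the Wnt1 promoter acts on both floxed copies of the type II TGF-beta receptor gene in neural crest cells and whatever descends from them. The 3 controls were Tgfbr2 fl/fl without Cre, although their titles say wildtype, so both groups carried the floxed alleles. Muscle fibres of the tongue come from mesoderm and keep the receptor gene in this design, as do epithelium and endothelium. The study asked how TGF-beta acts on the tongue while its muscle forms, given that the mutants have a small tongue. No label says whether the embryos came from separate litters, so p-values reflect no more than the spread among these 6 samples. All values are log2 expression from RMA, and a log2 difference is mutant minus control.

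Receptors of the TGF-beta family are kinases that phosphorylate receptor-regulated Smads at their tail. Smad2 and Smad3 carry the signal of TGF-beta and activin receptors, Smad1 and Smad5 that of BMP receptors, and both pairs enter the nucleus with the shared partner Smad4. Smad6 and Smad7 are inhibitory Smads that block receptors and are themselves induced by the signals they dampen, Smad6 mainly downstream of BMP and Smad7 downstream of both. Ski and its relative SnoN, the product of Skil, are nuclear co-repressors that hold Smad complexes silent, and Skil is also a TGF-beta target. These steps act on proteins, whereas the arrays measured RNA.

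The stretches of promoter shown here belong to Smad6 and Smad5. Entries of the RefSeq promoter table (build GRCm38.p6) were used for 5 of 9 members: Smad1, Smad3, Smad5, Smad6 and Ski. Among these 5, Smad6 had the largest positive difference and Smad5 the most probe sets on one side of the controls. No entry was used for Smad2, Smad4, Smad7 and Skil, which does not show that the table lacks them. Smad2, Smad4 and Smad7 lie on the same chromosome, and no entry from it was used. Whether the motifs lie before Smad2, Smad4, Smad7 and Skil was thus not examined. Each stretch is the 250 bases before a transcription start, written 5′ to 3′ on the strand of the gene. Capitals mark matches, on either strand, to GGCGCC and to GCCGNCGC, GC-rich letters known to be bound by BMP Smads, or to CAGAC, the letters bound by Smad3 and Smad4. The Smad6 stretch lies at chr9:64022060-64022309 on the minus strand, and the Smad5 stretch at chr13:56702802-56703051 on the plus strand, before the second of the 3 Smad5 starts in the table.
Smad6: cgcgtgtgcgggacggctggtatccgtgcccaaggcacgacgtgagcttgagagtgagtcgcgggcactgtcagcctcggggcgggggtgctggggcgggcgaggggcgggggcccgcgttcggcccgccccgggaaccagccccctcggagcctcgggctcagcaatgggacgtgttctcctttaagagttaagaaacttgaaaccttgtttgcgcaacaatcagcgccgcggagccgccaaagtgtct
Smad5: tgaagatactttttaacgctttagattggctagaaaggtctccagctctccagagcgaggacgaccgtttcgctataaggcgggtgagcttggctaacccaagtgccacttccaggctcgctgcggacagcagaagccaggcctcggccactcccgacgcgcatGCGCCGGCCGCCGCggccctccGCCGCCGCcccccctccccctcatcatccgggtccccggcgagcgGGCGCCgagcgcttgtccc
The Smad6 stretch held none of the 3 motifs, which says only that these letters are not in this window. The Smad5 stretch held GGCGCC at 19 bases before the start and GCCGNCGC at 86, 80 and 64 bases before it, of which the matches at 86 and 80 overlap. The first Smad5 window, which shares most of its bases with the one shown, held the same 3 matches of GCCGNCGC, and the last one held CAGAC once. The Ski window held GGCGCC once and GCCGNCGC at 3 places, and the Smad1 and Smad3 windows held none of the motifs. Over all 32851 promoter windows of this length in the table, GGCGCC was in 9.59%, GCCGNCGC in 6.89% and CAGAC in 42.2%. No binding was measured here, so a match is a description of the sequence.

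The gene targeted in the mutants comes first as a check. The brightest Tgfbr2 probe set had 11.16, 11.79 and 11.69 in mutants, against 11.55, 11.82 and 11.80 in controls. The groups overlapped and differed by -0.18 on the log2 scale (adjusted p = 0.642 by limma across 13645 genes, standard error 0.18). Its other probe sets differed by -0.14 and -0.04. The sources used here do not say whether the probes lie in the floxed part, and muscle, epithelium and endothelium retain an intact gene in the mutants, which leaves the genotype labels unchecked by these values. Mutant array 1 stood apart from the other 5 arrays: it lay at -39.1 on the first principal component of the tested genes, which held 57.2% of the variance, against -6.91 and -2.87 for mutant arrays 2 and 3 and 9.29, 19.6 and 20.04 for the controls. The RNA of Xist, made in female cells, was high in mutant arrays 1 and 3 and control array 1 and low in the other 3 arrays, so sex was not balanced between the groups. The differences of the 9 genes and the medians of the gene lists are therefore given with and without mutant array 1. In this bulk tissue, fewer cells of a type and less RNA per cell cannot be told apart.

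None of the 9 Smad and Ski genes passed the threshold of an adjusted p under 0.05 (limma with Benjamini-Hochberg adjustment over 13645 genes), where 2.14% of all tested genes did. At an unadjusted p under 0.05 the count was 1 of 9, Smad6, against 16.9% of all tested genes. The mutant and control values did not overlap for 3 of the 9, Smad6 and Smad7 with higher values in mutants and Smad5 with lower ones, and 25.1% of all tested genes had groups that do not overlap. The median log2 difference of the 9 genes was -0.02 (4 positive and 5 negative), against 0.02 for all tested genes (7288 positive and 6357 negative). By the brightest probe set of each gene, the 95% intervals of all 9 differences lay inside a 2-fold change in either direction. Those of 7 lay inside a 1.5-fold change, the exceptions being Smad2 and Smad6. On dimmer probe sets of Smad1, Smad3, Smad4, Smad5, Ski and Skil, intervals went past a 1.5-fold change (to -0.62, -0.86, 0.62, -0.995, -0.64 and 0.60). The interval of the dimmer Smad2 probe set ran from -0.69 to 2.23, past a 2-fold change, and that of the dimmer Smad7 one from -0.09 to 0.29. At the level of single probe sets the count past the threshold was 0 of 21 (0.941% of all 33778 tested probe sets), 5 of 21 had an unadjusted p under 0.05 (15.2% of all), and 8 of 21 had groups that do not overlap (22.6% of all). Those 8 were all 3 probe sets of Smad5 and 1 of Smad1 with lower mutant values, and those of Smad6, both of Smad7 and 1 of Skil with higher mutant values.

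**Figure D1:**
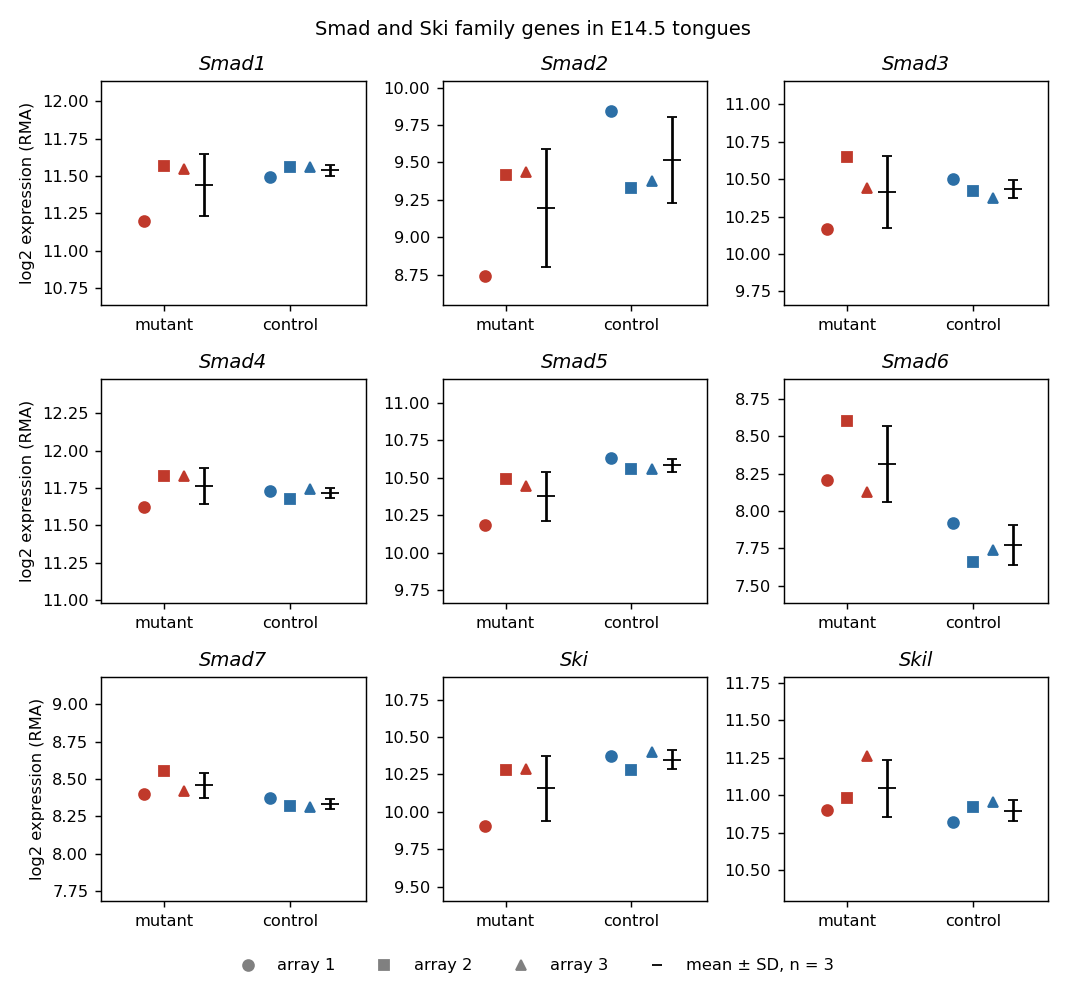
Log2 expression (RMA) of the 9 genes by their brightest probe set in the 3 mutant arrays (left, red) and the 3 control arrays (right, blue), with the mean and SD of each group in black and every axis spanning the same range in log2 units. Mutant array 1 (circle) is the lowest of the 6 arrays for Smad1, Smad2, Smad3, Smad4, Smad5 and Ski, and the groups are separate for Smad5, Smad6 and Smad7.

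Smad6, the inhibitory Smad that dampens BMP receptors, had the largest difference of the 9 genes. It had 8.21, 8.60 and 8.13 in mutants, against 7.92, 7.66 and 7.74 in controls, on its only probe set. All 3 mutants were above all 3 controls, with mutant array 2 the highest. The means were 8.31 ± 0.26 in mutants and 7.77 ± 0.13 in controls (SD, n = 3 each), a difference of 0.54 (standard error 0.14, 1.45-fold, adjusted p = 0.124 by limma). The 95% interval of the difference was 0.20 to 0.88, or 1.15-fold to 1.84-fold. It did not pass when any 1 array was left out (differences between 0.39 and 0.63, adjusted p between 0.0797 and 0.444), and without mutant array 1 it was 0.59 (adjusted p = 0.0797). With array quality weights it was 0.63 and passed (adjusted p = 0.0230). That fit weighted mutant array 1 by 0.155, mutant arrays 2 and 3 by 0.945 and 0.979, and the controls by 0.838 to 3.34. With sex as a covariate it was 0.59 (adjusted p = 0.207).

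Smad7, the inhibitory Smad of both branches, differed by less. It had 8.40, 8.55 and 8.42 in mutants, against 8.37, 8.32 and 8.31 in controls. The groups were separate, but mutant array 1 and control array 1 differed by less than the mutants did among themselves. The difference was 0.12 (standard error 0.09, 1.09-fold, adjusted p = 0.513), with a 95% interval of -0.08 to 0.33, and it was 0.15 without mutant array 1. The other Smad7 probe set, whose name carries the suffix for probes shared with other transcripts, had 7.66, 7.63 and 7.71 in mutants and 7.55, 7.59 and 7.57 in controls. It gave 0.10 (adjusted p = 0.608). The upper end of the interval of the brighter probe set was 1.25-fold.

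Among the Smads of the BMP branch, Smad5 had lower mutant values on each of its 3 probe sets. The brightest had 10.19, 10.49 and 10.45 in mutants, against 10.63, 10.56 and 10.56 in controls, which is a difference of -0.21 (standard error 0.11, adjusted p = 0.372). The next in brightness had 9.67, 9.37 and 10.12 in mutants, against 10.21, 10.29 and 10.38 in controls. The dimmest had 7.47, 7.34 and 7.63 in mutants, against 8.01, 7.82 and 7.87 in controls. No mutant value reached the lowest control value on any of them. These last gave -0.57 and -0.42 (adjusted p = 0.213 and 0.149 over all probe sets), further from 0 than the brightest one that stands for the gene. As the mean of its probe sets Smad5 gave -0.40 (adjusted p = 0.103). The 3 probe sets read the same RNA samples, so their agreement does not add replicates. Without mutant array 1 the brightest gave -0.11, and the others gave -0.55 and -0.41. Without mutant array 3 the one next in brightness gave -0.77 and passed (adjusted p = 0.0489).

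Smad1, the other receptor-regulated Smad of the BMP branch among the 9 genes, gave mixed probe sets. Its brightest had 11.20, 11.57 and 11.55 in mutants, against 11.50, 11.56 and 11.56 in controls, which is a difference of -0.10 (standard error 0.12, adjusted p = 0.708). Only mutant array 1 was outside the control range by more than 0.1, and without it the difference was 0.02. The dimmest had 8.63, 8.76 and 9.04 in mutants, against 9.18, 9.18 and 9.07 in controls. On that one all mutants were below all controls, by -0.33 on average (adjusted p = 0.265). A probe set with the shared-probe suffix gave -0.05 (adjusted p = 0.868).

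Smad2 and Smad3, which carry the TGF-beta signal itself, did not pass, and in both the sign of a difference turned when 1 array was left out. The brightest Smad2 probe set had 8.74, 9.41 and 9.43 in mutants, against 9.85, 9.33 and 9.37 in controls. Mutant array 1 was the lowest and control array 1 the highest, and the other 4 arrays lay between 9.33 and 9.43. The difference was -0.32 (standard error 0.22, adjusted p = 0.501), and it was -0.09 without mutant array 1. The other Smad2 probe set had 8.72, 8.75 and 8.72 in mutants, against 6.27, 8.79 and 8.82 in controls. Control array 1 alone was low, and with it the difference was 0.77 (adjusted p = 0.601), against -0.08 without it. Control array 1 lay over 2 log2 units below both other controls on 11 of the 33778 tested probe sets, and each of the other arrays did so within its group on between 0 and 3. The mean of both Smad2 probe sets gave 0.22, the opposite sign of the brightest one.

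Smad3 had 10.17, 10.65 and 10.44 in mutants, against 10.50, 10.42 and 10.38 in controls. Mutant arrays 1 and 2 lay on either side of all controls, and the difference was -0.02 (standard error 0.13, adjusted p = 0.964). Its sign was not stable: the difference was 0.11 without mutant array 1. The other Smad3 probe sets were dim, with means between 5.75 and 6.28, and gave -0.41 and -0.15 (adjusted p = 0.365 and 0.498). The first of these carries the shared-probe suffix. As the mean of its 3 probe sets, all negative in the main fit, Smad3 gave -0.19 (adjusted p = 0.348 by limma).

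Smad4, the common partner of both branches, had 3 probe sets, none of which passed. In the brightest the values were 11.62, 11.83 and 11.83 in mutants, against 11.73, 11.68 and 11.74 in controls. The difference was 0.05 (standard error 0.09, adjusted p = 0.842), with a 95% interval of -0.17 to 0.26, or 0.886-fold to 1.20-fold, and it was 0.11 without mutant array 1. Its other probe sets gave -0.04 and 0.09, the second with control array 1 at 9.32 against 10.12 and 10.14 in the other controls.

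The co-repressor genes Ski and Skil had differences of opposite sign, and neither passed. Ski had 9.91, 10.28 and 10.28 in mutants, against 10.37, 10.28 and 10.40 in controls. Mutant array 1 was below the rest and mutant arrays 2 and 3 were within the control range, with a difference of -0.19 (standard error 0.12, adjusted p = 0.473) and of -0.07 without mutant array 1. The other Ski probe set gave -0.27 (adjusted p = 0.480), again with mutant array 1 the lowest at 9.59, and -0.09 without it. Skil had 10.90, 10.98 and 11.26 in mutants, against 10.82, 10.92 and 10.95 in controls. The groups overlapped and mutant array 3 was the highest, with a difference of 0.15 (standard error 0.12, adjusted p = 0.555) and of 0.22 without mutant array 1. The dim second Skil probe set had 5.22, 5.48 and 5.54 in mutants, against 5.08, 5.04 and 5.07 in controls. There the groups were separate, with a difference of 0.35 (adjusted p = 0.205) that was 0.45 without mutant array 1 (adjusted p = 0.0522) and passed with array quality weights (0.42, adjusted p = 0.0439).

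**Figure D2:**
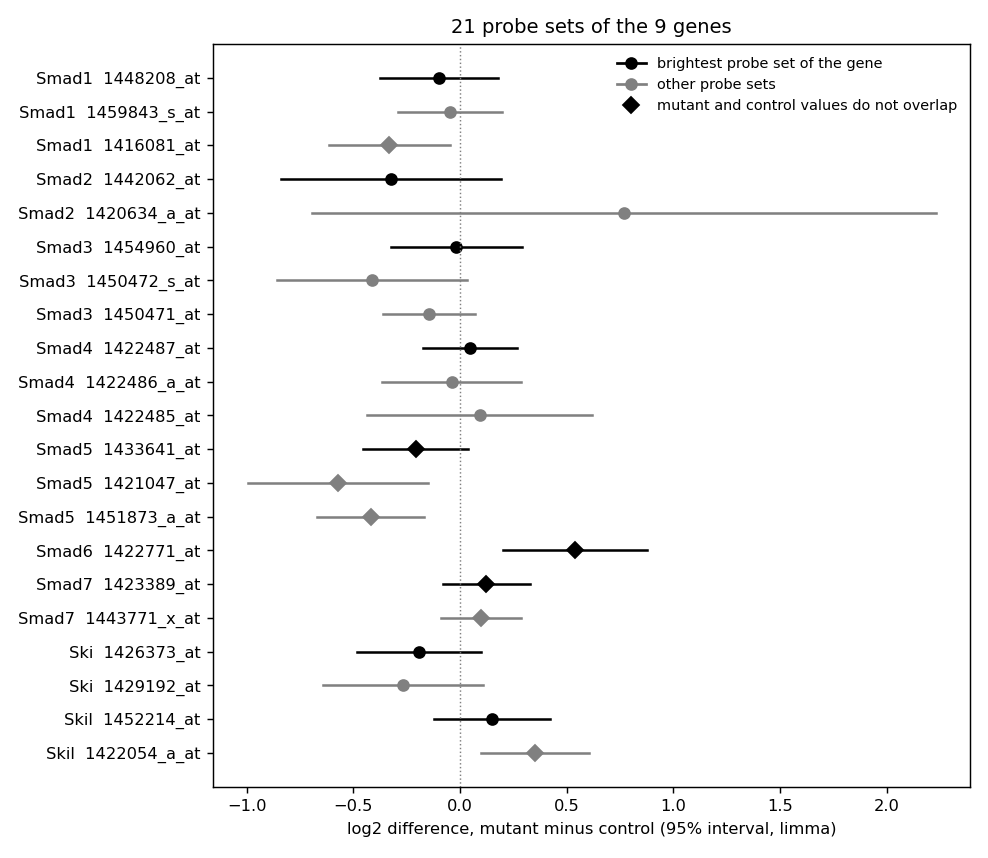
Log2 difference between mutants and controls for each of the 21 probe sets with its 95% interval from limma across all probe sets. Black marks the brightest probe set of a gene, grey the others, and diamonds those whose mutant and control values do not overlap. The 3 Smad5 probe sets lie left of 0 and the Smad6, Smad7 and Skil ones right of it, and the widest interval is that of the Smad2 probe set on which control array 1 was low.

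Mutant array 1 was the lowest of the 6 arrays for 6 of the 9 genes, Smad1, Smad2, Smad3, Smad4, Smad5 and Ski, as it was for 32.6% of all tested genes. The SD among the mutants was larger than that among the controls for 9 of 9 genes, and for 76.7% of all tested genes. Set against each gene's mean in controls, the 9 genes had a median of -0.27, 0.08 and 0.01 in mutant arrays 1, 2 and 3, against 0.04, -0.02 and -0.02 in control arrays 1, 2 and 3. With mutant array 1 left out, the 9 genes had a median of 0.11, with 6 of 9 genes positive, and again 0 of 9 passed. All tested genes had a median of 0.017 in that fit, and 670 of 13645 passed. Smad5 and Ski stayed negative in each fit that left out 1 array (between -0.27 and -0.11 for Smad5, and between -0.26 and -0.07 for Ski), as did Smad2 (between -0.44 and -0.09), and Smad4, Smad6, Smad7 and Skil stayed positive. On the array's own RNA quality probes, the 3′ minus 5′ log2 signal of beta-actin was 0.82, 0.67 and 0.93 in mutants and between 0.81 and 0.91 in controls. That of Gapdh was 0.08, 0.04 and 0.37 in mutants and between 0.18 and 0.32 in controls. Mutant array 1 was thus inside the control range for beta-actin and below it for Gapdh, where mutant array 2 was lower still. The part of RNA quality in the values of mutant array 1 was not tested.

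**Figure D3:**
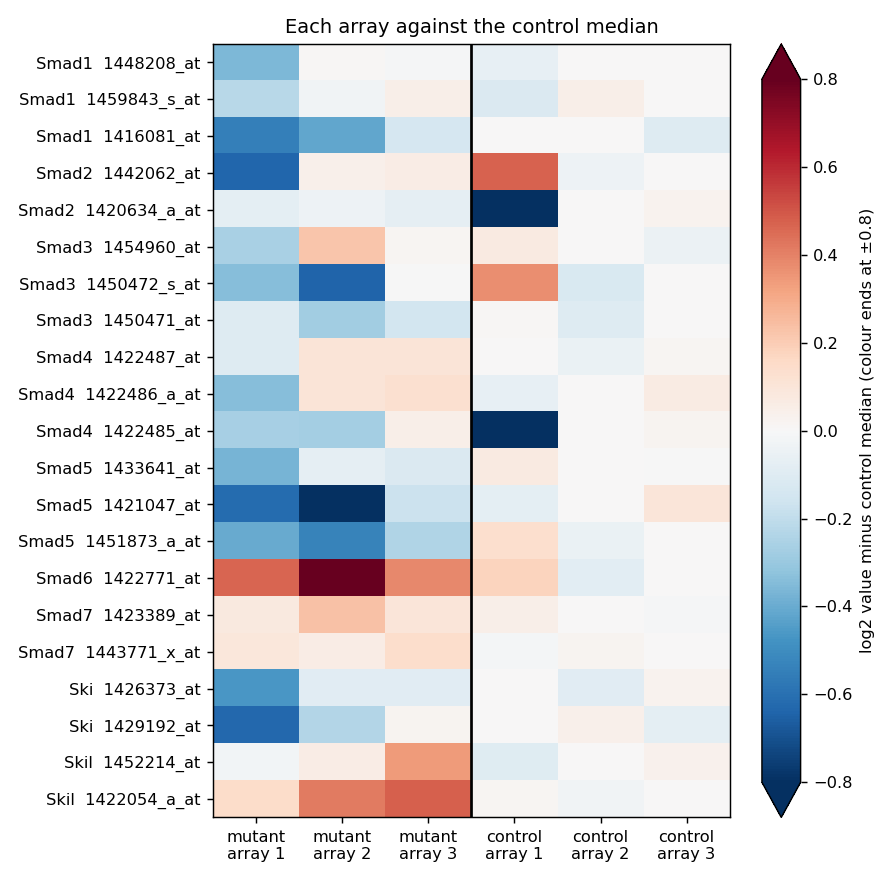
Log2 value of each of the 21 probe sets in the 6 arrays minus the control median of that probe set, with red above and blue below it and the colours ending at 0.8 in either direction. The blue column of mutant array 1 covers Smad1, Smad2, Smad3, Smad4, Smad5 and Ski probe sets, and the dark cells in control array 1 are the Smad2 probe set at 6.27 and the Smad4 probe set at 9.32.

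Marker lists of the cell types in a tongue were read beside these values. All 7 of 7 epithelial markers had positive differences (median 0.60, and 0.44 without mutant array 1), 6 with groups that do not overlap, 5 at an unadjusted p under 0.05 and 0 past the adjusted threshold of limma. Their mean log2 level was 11.8, 11.4 and 11.1 in mutant arrays 1, 2 and 3, and between 10.7 and 10.9 in controls, so the material held epithelium although the descriptions speak of tongue mesenchyme. Endothelial markers, which mark cells known to express Smad6, had 8 of 10 differences negative (median -0.34, 0 past the threshold, 1 at an unadjusted p under 0.05). Without mutant array 1 their median was -0.04, with 7 of 10 negative. Their mean level was 6.95 in mutant array 1, 7.597 in array 2 and 7.57 in array 3, against 7.58 to 7.78 in controls. Skeletal muscle markers had 8 of 8 negative (median -0.69, and -0.32 without mutant array 1, 0 past the threshold, 3 at an unadjusted p under 0.05), with levels between 10.5 and 11.4 in mutants and between 11.3 and 11.8 in controls. The neural crest mesenchyme list had a median of -0.19 over 7 genes (3 positive and 4 negative, and -0.10 without mutant array 1) and levels of 11.2 to 11.7 in mutants and 11.5 to 11.6 in controls, and among its matrix genes Dcn and Lum rose by 0.65 and 0.77 (adjusted p = 0.0238 and 0.0152), whereas Col1a1 and Col1a2, named after their values were seen, gave -0.54 and -0.57 (adjusted p = 0.508 and 0.270). The macrophage list had a median of 0.08 over 7 genes (0.24 without mutant array 1) and levels of 7.51 to 7.61 in mutants and 7.38 to 7.55 in controls, and in it the receptor gene Mrc1 fell by 1.53 and the complement gene C1qb rose by 0.87 (adjusted p = 0.00775 and 0.0482). The nerve and Schwann cell list had a median of 0.37 over 5 tested of 7 genes (0.59 without mutant array 1) and levels of 7.68 to 8.22 in mutants and 7.41 to 7.54 in controls, and the neuronal gene Stmn2 rose by 1.07 (adjusted p = 0.0272). The red cell list had a median of -0.11 over 4 tested of 6 genes (-0.43 without mutant array 1), with 0 past the threshold and 1 at an unadjusted p under 0.05, and levels of 8.91 to 9.60 in mutants and 9.13 to 9.69 in controls. Groups were separate and lower in mutants for 4 of 10 endothelial, 3 of 8 muscle and 1 of 4 red cell markers. Mesenchyme had 2 separate and higher and 1 lower, macrophage 3 higher and 1 lower, and nerve and Schwann cell 4 of 5 higher. An unadjusted p under 0.05 was found for 3 of 7 mesenchyme, 4 of 7 macrophage and 4 of 5 nerve and Schwann cell markers. Over all tested genes, 25.1% had separate groups and 16.9% an unadjusted p under 0.05. The calls of all 5 marker genes ended without control array 2 (adjusted p = 0.109 for Dcn, 0.101 for Lum, 0.219 for C1qb, 0.149 for Stmn2 and 0.0555 for Mrc1) and without control array 3 (0.127, 0.101, 0.226, 0.147 and 0.0545 in the same order). With the sex covariate those of Dcn, Lum, C1qb and Stmn2 ended too (0.0697, 0.0521, 0.131 and 0.0828), and as the mean of probe sets those of Dcn and Stmn2 (0.0589 and 0.0707). Smad6 was separate between the groups in the direction of the medians of the epithelial, nerve and Schwann cell and macrophage lists. Smad5 was separate in the direction of the medians of the endothelial, muscle, mesenchyme and red cell lists. Each direction was thus shared by several lists. The part of these cell types in the Smad values was not tested.

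**Figure D4:**
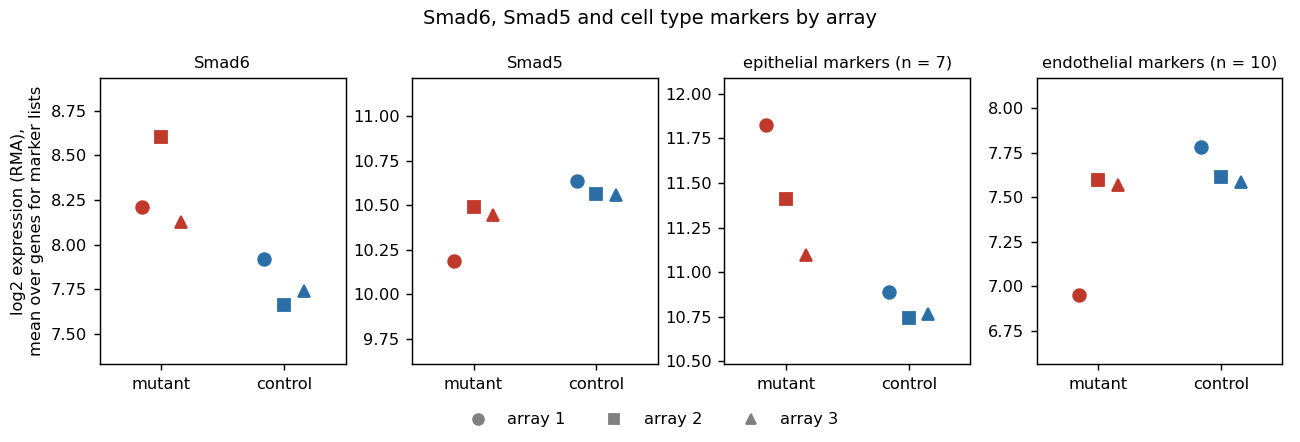
Log2 expression of Smad6 and Smad5 by their brightest probe sets, and the mean log2 level of 7 epithelial and 10 endothelial markers, in the 3 mutant arrays (left, red) and the 3 control arrays (right, blue), with marker shapes for arrays 1, 2 and 3. Smad6 is highest in mutant array 2, whereas the epithelial list is highest and the endothelial list lowest in mutant array 1.

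Genes that act on Smads or receive their signal were set beside the members in 6 lists. Of 63 tested genes outside the 9, 1 passed, against 2.14% of all tested genes: Cdkn2b, encoding a cell cycle inhibitor that TGF-beta induces in epithelial cells. Cdkn2b had 7.33, 7.08 and 7.01 in mutants, against 6.32, 5.98 and 5.96 in controls. All mutants were above all controls, and Cdkn2b rose by 1.05 (standard error 0.14, adjusted p = 0.0150). The call was lost without mutant array 2, control array 2 or control array 3 (adjusted p = 0.0581, 0.09999 and 0.0973). With the replicate number as a block 3 passed, the others being Tgfbi, a matrix gene induced by TGF-beta (-1.62, adjusted p = 0.0618 without the block and 0.0211 with it), and Bambi, a decoy receptor gene (0.56, adjusted p = 0.131 without the block and 0.0351 with it). Tgfbi also passed without mutant array 1 (-1.18, adjusted p = 0.00175) and with array quality weights (-1.31, adjusted p = 0.00233), and had an adjusted p of 0.146 with the sex covariate and of 0.164 to 0.260 when 1 control was left out. Without mutant array 1, 4 genes of the lists passed: Cdkn2b, Tgfbi, the cell cycle inhibitor gene Cdkn1a (0.40, adjusted p = 0.0368, against 0.32 and 0.179 with it) and the co-receptor gene Tgfbr3. Calls rose over the whole array in these fits. Of all 13645 tested genes, 670 passed without mutant array 1, 490 with the block and 1034 with array quality weights, against 292 in the main fit. Tgfbi, Bambi, Cdkn1a and Tgfbr3 were named after their values were seen.

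The genes of the machinery around the Smads gave no call with all 6 arrays. Of 12 tested receptor genes 0 passed (4 positive, 8 negative, median -0.04, smallest adjusted p = 0.207, and 2 at an unadjusted p under 0.05), and without mutant array 1 the median was 0.06 with 8 positive and 4 negative. Tgfbr3, which gave 0.20 (adjusted p = 0.768), passed without mutant array 1 (0.60, adjusted p = 0.0186). The activin receptor gene Acvr1b gave 0.25, and 0.09 as the mean of its probe sets. The BMP type I receptor gene Acvr1 gave -0.36, and -0.21 without mutant array 1. Acvrl1, a receptor gene of endothelium, gave 0.27, 0.14 without mutant array 2 and 0.17 without control array 3. Of 13 ubiquitin ligase and deubiquitinase genes, which set Smad and receptor turnover, 0 passed (median -0.10, and -0.01 without mutant array 1, smallest adjusted p = 0.325, 0 at an unadjusted p under 0.05). The deubiquitinase genes with the smallest p were Usp15, Usp4 and Usp9x. Usp15 and Usp4 gave -0.19 and -0.22, but -0.07 and -0.05 as the mean of their probe sets. Usp9x gave -0.28, -0.09 without mutant array 1 and -0.45 without mutant array 3. Of 9 anchor, transport and phosphatase genes 0 passed (median 0.01, and 0.10 without mutant array 1, smallest adjusted p = 0.179, 1 at an unadjusted p under 0.05). Xpo4, a nuclear export factor of Smad3, gave -0.42, but -0.03 (adjusted p = 0.901) with its probe sets averaged. Strap gave -0.15. Ipo7 gave -0.21, -0.05 without mutant array 1 and -0.08 as the mean of its probe sets. Of 14 nuclear partner genes 0 passed (median -0.03, and 0.0011 without mutant array 1, smallest adjusted p = 0.260, 1 at an unadjusted p under 0.05). The co-repressor gene Tgif1 gave 0.39, the antiproliferative gene Tob1 gave -0.21 (-0.08 as the mean of its probe sets), and the acetyltransferase gene Crebbp gave -0.58, with 10.21, 10.43 and 11.36 in mutants against 11.18, 11.29 and 11.29 in controls. It was -0.35 without mutant array 1, and passed without mutant array 3 (-0.93, adjusted p = 0.0266).

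The tested TGF-beta targets had a median of -0.09 over 9 genes with Smad7 and Skil kept in the list (4 positive and 5 negative), and of -0.33 over the 7 others (2 positive and 5 negative). Of these 7, 6 had an unadjusted p under 0.05, 2 higher and 4 lower in mutants, against 16.9% of all tested genes in either direction. Without mutant array 1 the medians of the 9 and of the 7 genes were 0.0037 and -0.26, so the sign of the list depended on that array and on which genes were counted. The 8 tested BMP targets outside the 9 members had a median of 0.40 (5 positive and 3 negative) and of 0.31 without mutant array 1, with 0 of 8 past the threshold. At an unadjusted p under 0.05 were 6 of 8, 5 higher and 1 lower in mutants, beside the same share of 16.9%. Relative to the control mean, the BMP target median was 0.47, 0.37 and 0.22 in mutant arrays 1, 2 and 3, against 0.22, 0.02 and -0.15 in control arrays 1, 2 and 3, so mutant array 3 and control array 1 had the same level. The genes of DNA-binding inhibitors Id3 and Id4, classic BMP targets, gave 0.55 and 0.61 (adjusted p = 0.126 and 0.0927), beside the 0.54 of Smad6. Both passed with array quality weights, and Id4 also with its probe sets averaged (0.50, adjusted p = 0.0380). The difference between the lists was not tested.

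**Figure D5:**
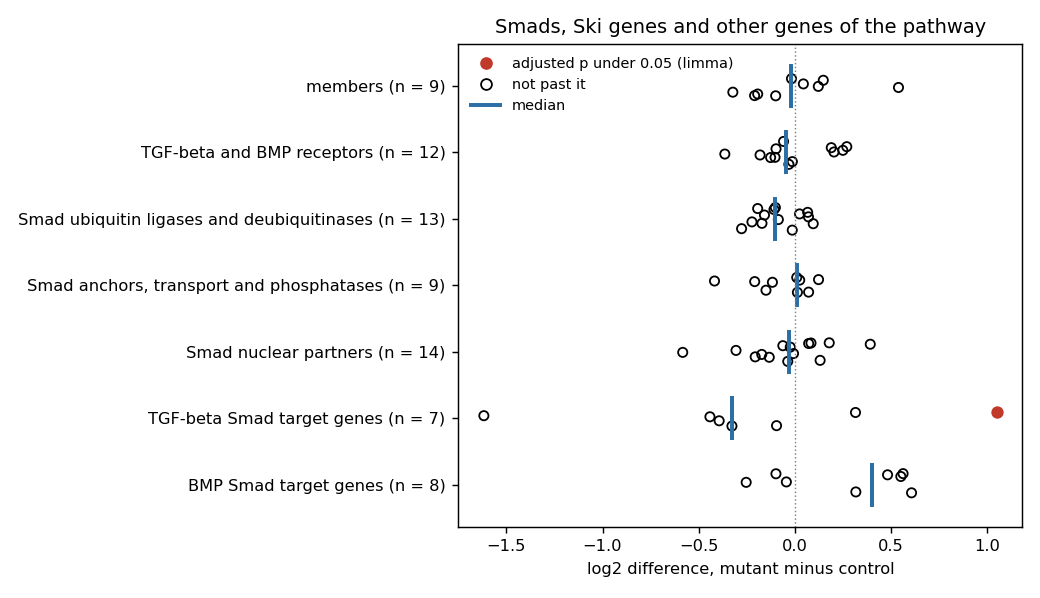
Log2 difference between mutants and controls for the 9 Smad and Ski genes and for the tested genes of 6 pathway lists, members left out of the lists, with the list median as a blue line and the 1 gene past an adjusted p of 0.05 filled in red. Smad6 stands at 0.54 in the top row, and the BMP target genes have the highest list median, 0.40.

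The genes whose values over the 6 arrays were most like those of the members are given as a description, since 6 arrays and 13645 genes leave many near matches. For Smad6 these were Wdtc1, Fez2 and Efnb3 (Pearson r = 0.997, 0.997 and 0.995), and for Smad7 they were Prcp, Prmt2 and Rnf19a (0.997, 0.994 and 0.993). For Ski they were Carm1, Parg and Dclre1a (0.998, 0.997 and 0.996), each with its lowest value in mutant array 1. For Skil they were Egfr, Akap12 and Osbpl8 (0.980, 0.971 and 0.967), each with its highest value in mutant array 3. All of these share the 6 arrays and their scaling with the members.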

How the data were processed

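Per the labels' protocols, total RNA was extracted from embryonic tongues and hybridised as biotin-labelled cRNA. The authors deposited 1 log2 value per probe set and array, made with RMA (version not stated) per the submitters' processing notes. RMA includes quantile normalization, so a shift shared by most genes would not show, and it compresses differences of dim probe sets. Array medians lay between 5.92 and 5.98. Arrays have no read depth, and their number limits the precision: over all tested genes the standard error of mutant minus control had a median of 0.117.

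Of 45101 probe sets, 64 were array controls, 34945 had 1 gene symbol, 932 several and 9160 none listed. Symbols were checked through Entrez identifiers against RefSeq (GRCm38.p6), which changed 0, with 204 probe sets unmatched. The probe set with the highest mean stood for a gene, genes in the lowest 25% (mean under 5.17) were left out, and 13645 genes were fitted with limma 3.58.1 in R 4.3.3 (lmFit, eBayes, 2-sided, Benjamini-Hochberg adjustment). All probe sets were fitted likewise (33778 after the filter, mean under 4.38). The fit was tested on simulated data. No result of that test is given here, so it lends no weight to the calls in these arrays. Figures used matplotlib 3.10.9.

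Titles of both groups carry the numbers 1 to 3. After each group mean was removed, arrays of the same number correlated at 0.309, 0.105 and 0.206, each above 0.1, and were treated as pairs in the alternative with a block. The pairing rests on titles and correlations alone, and unlike-numbered arrays 2 and 3 correlated at 0.147 and 0.196, also above 0.1. Deviations within a group cancel out, so these correlations are not independent and cannot identify pairs. The main fit has no block. Alternatives were other filters, mean of probe sets, other scalings, trend and robust fitting, array weights, the block, sex from Xist and 3 Y-linked genes as a covariate, a threshold of 0.1 and each array left out.

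The members and gene lists were chosen with earlier results of these data known. Named were all members, Tgfbr2, the called genes of each pathway list or else the 3 with the smallest p, called marker genes, and the 3 genes most correlated with Smad6, Smad7, Ski and Skil. List genes without a tested probe set (among them Smad9) were not analysed here.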

Additional observations from a re-analysis of the deposited data

How the results depend on the processing

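Precision is limited by 3 arrays per group. The 9 genes, the counts of calls and the genes named from the lists were recomputed under up to 16 alternatives. Single probe sets have no value as the mean of probe sets, and Cdkn2b, Xpo4, Acvrl1 and the dimmest probe sets of Skil and Smad3 have none with the lowest 50% left out. List medians were recomputed only without mutant array 1, and the correlations under none. The count of Smad and Ski genes past the threshold was 0 in all alternatives except array quality weights, where it was 1 (Smad6). The count of their probe sets was 0 except for 1 with array quality weights and 1 without mutant array 3 (0 to 1 over the fits that left out 1 array). Over all tested genes, 1034 passed with those weights and 242 without mutant array 3, against 292 in the main fit. No count over all probe sets is given for these fits. With a replicate block Smad6 gave 0.54 with an adjusted p of 0.117, and this pairing changed no call among the 9 genes or 21 probe sets.

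Signs turned only for differences that had not passed the threshold, and the causes were not tested. Smad3 turned to 0.096 with array quality weights, 0.018 with quantile normalization and 0.033 with the sex covariate, and ranged from -0.13 to 0.11 when 1 array was left out (0.11 without mutant array 1 and 0.016 without control array 1). Without mutant array 1, Smad1 turned to 0.020 (range from -0.16), its shared-suffix probe set to 0.033 (from -0.10) and Tgfbr2 to 0.014 (from -0.30). Smad2 turned to 0.22 as the mean of its probe sets. Its dimmer probe set turned to -0.079 without control array 1 and reached 1.20 without control array 3. The dimmest Smad4 probe set turned to -0.020 with array quality weights, and ranged from -0.18 to 0.23 when 1 array was left out (-0.18 without control array 1 and -0.012 without mutant array 3). The middle Smad4 probe set turned to 0.049 with array quality weights and 0.017 with the sex covariate, and ranged from -0.12 to 0.11 (0.11 without mutant array 1).

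The count over all tested genes was 292. It was 549 at an adjusted p under 0.1, 1034 with array quality weights and 151 with the lowest 50% left out. It was 490 with the replicate block and 116 with the sex covariate. When 1 array was left out it lay between 16 and 670. It was 670, 88 and 242 without mutant arrays 1, 2 and 3, and 142, 16 and 19 without control arrays 1, 2 and 3. The pathway count of 1 was 3 at an adjusted p under 0.1, 7 with array quality weights, 0 with the lowest 50% left out, 2 as the mean of probe sets, 3 with the replicate block, and between 0 and 4 when 1 array was left out. Tgfbr3 ranged from -0.013 (without mutant array 2) to 0.60 when 1 array was left out. Of the marker calls, C1qb, Dcn, Lum and Stmn2 were lost in 4 to 8 alternatives each and Mrc1 in 2.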
